A study of Mus musculus with 16 samples.

Results

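Anchor bins that loop to both sides were examined in the newborn mouse cochlea: bins of 10 kb from which 1 chromatin loop ran to the left and another to the right. They were selected from the deposited loop list of chromosomes 1 to 19 as the bins used by exactly 2 loops, once as the first and once as the second anchor. The list held 6689 loops on these chromosomes, anchored in 11622 bins, and 117 bins (with 234 loops) met the rule. They are called both-sided bins here. The comparison group was the 1283 bins used by exactly 2 loops on the same side, of which 647 were right-looping (both partners at higher coordinates) and 636 were left-looping. Another 10050 bins were used once. The other ends of the 2 loops are called the partners of a bin, and a listed loop that joined both partners within 10 kb at each end is called a joining loop.

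Chromatin loops bring a pair of distant positions together. Many form where cohesin draws out DNA until it meets the protein CTCF, and such loops usually join CTCF sites whose motifs point toward each other. The strand of a CTCF motif therefore tends to match the side to which its site loops. A bin with a loop to each side is at once the right end of one loop and the left end of the next, which a single motif of one direction would not match on both sides.

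Micro-C, in which crosslinked chromatin is digested by micrococcal nuclease and neighbouring ends are ligated, was performed on dissociated cochleae of C57Bl/6 mice in 4 replicates, at P0 by the sample labels and P0/1 by the design text. No treatment or genotype was compared, and all replicates were of this one kind. The cochlea holds sensory hair cells, supporting cells, neurons and other cells, so that a listed loop may come from any of them, and whether both loops of a bin occurred in the same cells cannot be told apart. The loop list was made on the merged replicates, so it has no value per replicate, no read count and no known depth per loop. By the study, replicate 4, which it calls technical, had the most read pairs, so the merged list rests most on it. The intervals given are 95% intervals that cover counting error over bins only, and no p-values are given. Because the loop positions chose the bins, their number, loop lengths and false discovery rates (FDR, the loop caller's measure of confidence, lower for a stronger call) are a description. Gene annotation and DNA sequence were not used by the rule.

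Matches to the CTCF core consensus are printed here to show what a bin with both strands and a bin with 1 strand look like. The examples were picked for these strands, so they show no difference between the groups. Most bins with a match had it on one strand only, both-sided and same-sided ones alike. The match is in capitals, with 8 bases of flank on each side, and each is read on the strand of the match from the mm10 (GRCm38) reference. Forward means that the match lies on the plus strand. Among both-sided bins with exactly 1 match on each strand, the 4 with the lowest FDR of their weaker loop (that is, the higher of the 2 FDR values) held these pairs. Bin A lies between protein-coding genes near Irs2 at chr8:11010001-11020000, bin B, which holds the start of the noncoding gene Gm10727, between protein-coding genes at chr3:53730001-53740000, bin C in Specc1 at chr11:62040001-62050000 (reverse match in an exon, forward match in an intron) and bin D, which holds the start of the noncoding gene 1700048P04Rik, between protein-coding genes at chr10:68900001-68910000.
Bin A, forward, chr8:11010503-11010532: ataaaggaCCAGTAGATGCCACtgttagcg
Bin A, reverse, chr8:11013549-11013578: agacgtcgCCAGTGGGTGGCAGtgtgggta
Bin B, reverse, chr3:53730320-53730349: cctgagccCCAGCAGGTGTCGGgtcagtgt
Bin B, forward, chr3:53735341-53735370: cctttctcCCACCAGATGGCACtatgtctt
Bin C, reverse, chr11:62044832-62044861: ccctctatCCACTAGGTGGAAGtgtagcct
Bin C, forward, chr11:62047989-62048018: gacgagagCCACCAGGTGGCAGccttgtcc
Bin D, forward, chr10:68902835-68902864: taacatgaCCACTAGATGGCACcggagtct
Bin D, reverse, chr10:68908482-68908511: gaatgcaaCCACTAGGGGGCGCattgatgc

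For comparison, the single matches of the right-looping and left-looping bins chosen in the same way are shown. Both right-looping bins held a forward match between protein-coding genes. Of the left-looping bins, the first had its reverse match in an intron of Sh3gl3 and the second between protein-coding genes.
Right-looping, forward, chr1:55404538-55404567: tcaacatcTCACTAGAGGGCAGtgttgctt
Right-looping, forward, chr13:73723512-73723541: tgattggaCCAGCAGAGGGCACcaacacag
Left-looping, reverse, chr7:82263346-82263375: cttggaggCCAGAAGAGGGCGCcagatccc
Left-looping, reverse, chr6:137724078-137724107: ccctgtagCCACTAGATGGCGAtcattcaa

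Bins with a loop to each side were few. They made up 117 of the 1400 bins used by exactly 2 loops (8.36%, Wilson interval 7.02% to 9.92%), where sides drawn independently would give 50%. For the expected numbers, left and right ends were taken as placed independently at their densities over each chromosome. This gave 181 both-sided bins, with exactly 1 end of each kind. It gave 180 same-sided bins, with exactly 2 ends of one kind and none of the other. The observed numbers were 0.648 and 7.12 times the expected ones. With densities taken within windows of 1 Mb, which allow for regions rich in anchors, the expected numbers were 265 and 233 and the ratios 0.441 and 5.51. On all 19 chromosomes both-sided bins were fewer than same-sided ones. Their share ran from 3.17% on chromosome 4 (2 both-sided against 61 same-sided bins) to 16.8% on chromosome 1 (21 against 104). Among the 172 bins used by 3 or more loops, 14 (8.14%, interval 4.91% to 13.2%) had loops to both sides, and all of these had exactly 3 loops.

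**Figure D1:**
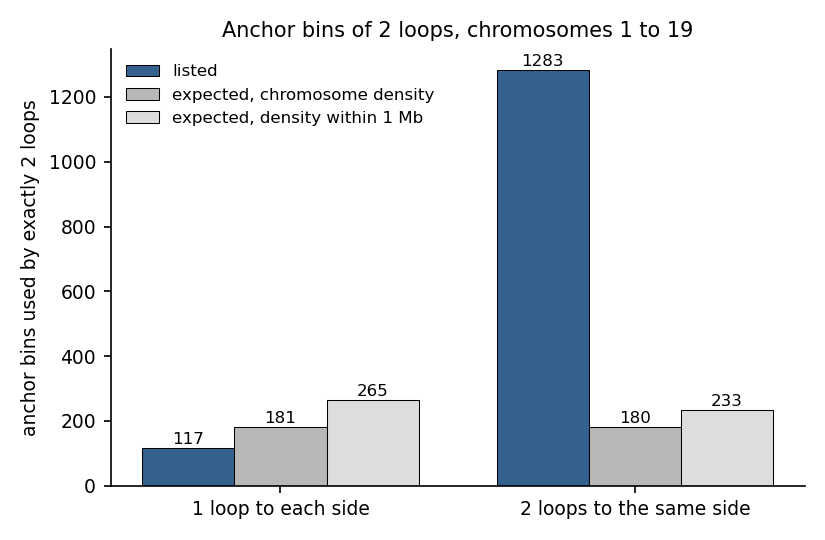
Number of anchor bins (y axis) used by exactly 2 loops on chromosomes 1 to 19, for bins with 1 loop to each side and bins with both loops to the same side. Blue bars are the listed numbers (117 and 1283), grey bars the numbers expected from the densities of left and right ends over the chromosome (181 and 180) and within 1 Mb (265 and 233).

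Just outside the rule, ends and starts of loops lay close together in great number but in separate bins. For pairs of loops the distance from the end bin of one to the start bin of the other was taken, with 0 for the same bin. Pairs in which one loop lay within the other were left out of this count. The same bin was the meeting point of 145 pairs (bins used by 3 or more loops included), against 418 pairs with the start 10 kb to the right of the end, 758 at 20 kb and 750 at 30 kb. The number then fell to 295 pairs at 100 kb and 242 at 200 kb. On the other side, where the start lies left of the end so that the loops cross, there were 42 pairs at 10 kb and 15 at 20 kb. Thus a loop end was most often followed by a new start 20 to 30 kb downstream, and fewer pairs met in the same bin than at either of these distances. Among bins used once, an end bin lay directly left of a start bin 244 times and directly right of one 30 times. Ends of the same kind behaved otherwise, with 915 pairs of loops starting in the same bin, 997 starting 10 kb apart and 300 starting 20 kb apart.

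**Figure D2:**
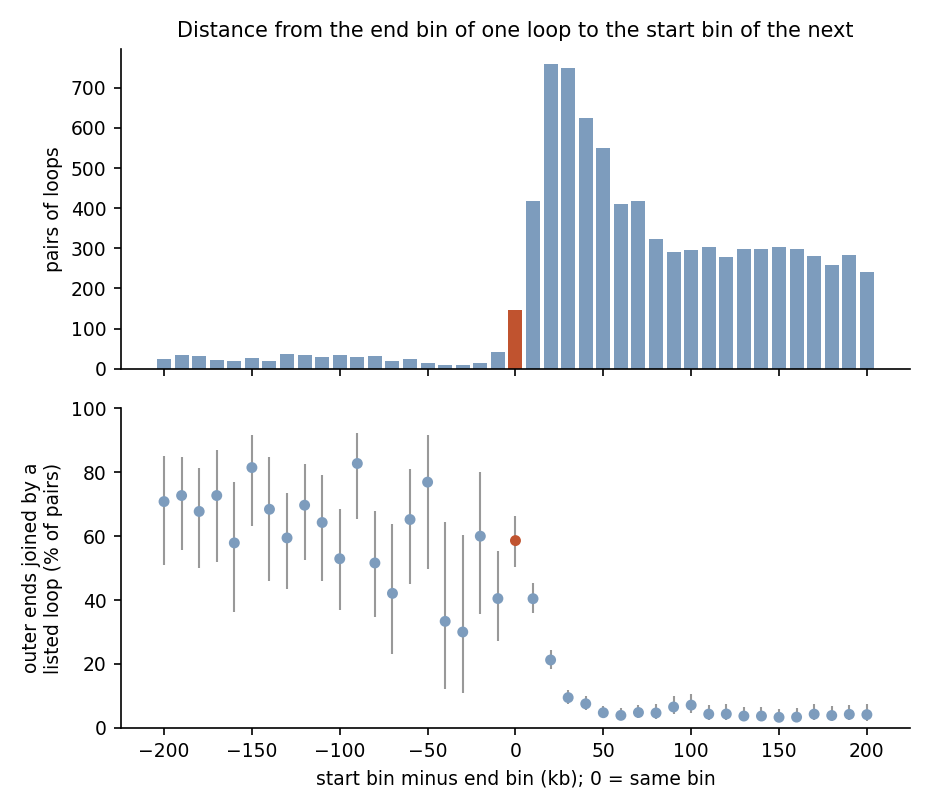
Upper panel, number of loop pairs (y axis) by the distance from the end bin of one loop to the start bin of the next (x axis, kb, 0 being the same bin, in red). Lower panel, percent of these pairs whose outer ends were joined by a listed loop within 10 kb, with 95% Wilson intervals as bars. Pairs peak at 20 kb with 758, and the joined share falls from 58.6% at 0 to 9.47% at 30 kb.

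The 2 loops of a both-sided bin were of unequal length. The shorter had a median of 180 kb (interval of the median 170 to 200) and the longer of 440 kb (370 to 510), and the longer was a median of 2.14 times the shorter (1.77 to 2.75). In same-sided bins the medians were 240 kb (220 to 250) and 480 kb (450 to 500), with a ratio of 1.72 (1.69 to 1.77). Neither side was favoured. The left loop had a median of 260 kb and the right loop of 270 kb, and the left loop was the longer at 56 bins, the right at 59, and both were equal at 2. Single loops ran from 70 to 1770 kb. The partners of a both-sided bin lay a median of 680 kb apart (570 to 730, range 210 to 2370), whereas partners of a same-sided bin, which lie in the same direction, were 170 kb apart (160 to 180). At 21.98% of same-sided bins (282 of 1283) the partners were less than 100 kb apart. None of the 117 both-sided bins had so short a span, which 2 loops of at least 70 kb in opposite directions make impossible.

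The loops of both-sided bins had higher FDR values. Their loops had a median FDR of 0.0240 (interval 0.0153 to 0.0329) against 0.0109 (0.0102 to 0.0119) for all other loops, at similar lengths of 270 and 280 kb. Both loops were below an FDR of 0.05 at 56 of 117 both-sided bins (47.9%, interval 39.0% to 56.8%) and at 846 of 1283 same-sided bins (65.9%, 63.3% to 68.5%). The better loop of a both-sided bin had a median FDR of 0.00574 and the weaker one of 0.0509, against 0.00181 and 0.0318 in same-sided bins.

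At most both-sided bins the outer partners were themselves joined. A joining loop was listed for 70 of 117 bins (59.8%, interval 50.8% to 68.3%), against 203 of 1283 same-sided bins (15.8%, 13.9% to 17.9%). A set of 3 joined bins can enter both shares, through its middle bin and through its outer bins. The numbers of bins below the shares are very unequal, so the shares are a description and no independent comparison. Since partners of both-sided bins lie farther apart, the shares were also taken over partners at least 400 kb apart. They were then 55 of 97 (56.7%) and 46 of 215 (21.4%), with the same overlap of sets. With the exact bins required, 20 of 117 (17.1%) both-sided and 33 of 1283 (2.57%) same-sided bins had a joining loop. The whole list held 24 sets of 3 loops that joined 3 bins exactly. The middle bin of such a set has a loop to each side by construction. It was a both-sided bin in 20 of the sets and otherwise a bin of 3 or more loops. Among pairs that met in 1 bin or did not cross, the share of joined pairs fell with distance. It was 58.6% at a distance of 0, 40.4% with the next loop starting 10 kb to the right, 21.2% at 20 kb, 9.47% at 30 kb and between 3.30% and 7.53% at 40 to 200 kb. Pairs that crossed by 10 to 200 kb were fewer (9 to 42 pairs at each distance), and their joined share varied from 30% to 82.8%.

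The joining loop was often the best call of the 3. Its median FDR was 0.000996 (interval 0.000707 to 0.00220) at a median length of 575 kb. It had the lowest FDR of the 3 loops at 45 of 70 bins (64.3%, interval 52.6% to 74.5%) and the highest at 7. Where more than 1 listed loop joined the partners, the nearest was taken. Of equally near ones that of lowest FDR was taken, which favours a low FDR. The bins chr10:69960001-69970000 and chr10:70180001-70190000 shared their joining loop, which is counted for each. Of the joining loops 67 were below an FDR of 0.05, and all 3 loops were so at 34 of the 70 bins. Bins with a joining loop had a shorter span than the 47 without one, with medians of 570 and 770 kb between the partners and of 370 and 560 kb for the longer loop. No both-sided bin was a partner of another. Both-sided bins made up only 1.01% of all anchor bins (117 of 11622), so this absence is a description only. The left partner of the bin chr1:194620001-194630000 was a bin used by 3 loops, 1 to the left and 2 to the right, so that 3 loops followed each other end to end there. The left partner was used once in 66 cases, was a right-looping bin in 40 and was used by 3 or more loops in 11. The right partner was used once in 68, was left-looping in 40 and was used by 3 or more in 9. Of all 11622 anchor bins, 647 were right-looping and 636 left-looping. At the 20 bins whose joining loop met the exact partner bins, that loop gave each partner a second loop toward the other by construction.

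**Figure D3:**
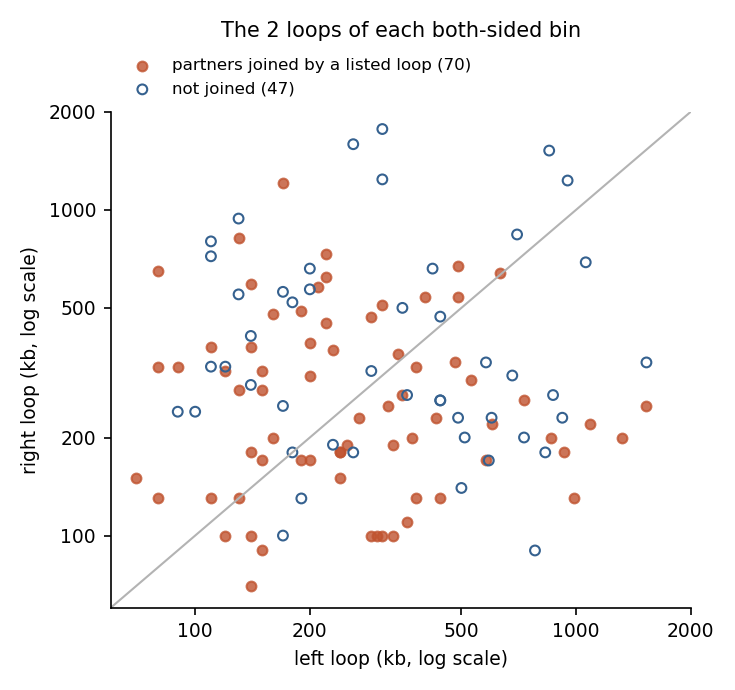
Length of the left loop (x axis, kb, log scale) and of the right loop (y axis, kb, log scale) of each of the 117 both-sided bins. Filled red points are the 70 bins whose partners were joined by a listed loop, open blue points the 47 others, and the grey line marks equal lengths. The points lie on both sides of the line, 56 with the left and 59 with the right loop longer, and the partners lie a median of 570 kb apart with and 770 kb without a joining loop.

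Both-sided bins lay mostly inside a larger loop. At least 1 other loop spanned 101 of 117 both-sided bins (86.3%, interval 78.9% to 91.4%), 489 of 1283 same-sided bins (38.1%, 35.5% to 40.8%) and 5010 of 10050 bins used once (49.9%, 48.9% to 50.8%). A joining loop spans its bin by construction. When it was set aside, 71 of 117 both-sided bins (60.7%, interval 51.6% to 69.1%) were still spanned. Among the 47 bins without a joining loop 31 (66.0%, 51.7% to 77.8%) were. Only 1 joining loop per bin was set aside, so other listed loops that end near both partners are still counted. With wider limits, the partners were joined at 79 of 117 bins within 20 kb and at 85 within 50 kb.

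The strand of the CTCF consensus, which the rule did not use, differed between the groups. A bin was scored by its matches with at most 1 mismatch to a 14-base core on either strand. A match was found in 61 of 117 both-sided bins (52.1%, interval 43.2% to 61.0%), 58.1% of same-sided bins, 47.0% of bins used once and 21.6% of all 10 kb bins of these chromosomes. Among bins with matches on one strand only, the forward strand held 263 of 302 right-looping bins (87.1%, interval 82.8% to 90.4%) and 49 of 345 left-looping bins (14.2%, 10.9% to 18.3%). Both-sided bins lay between, with 23 of 51 (45.1%, 32.3% to 58.6%). The differences of 42.0 percentage points from right-looping bins (Newcombe interval 27.8 to 55.2) and of 30.9 points from left-looping bins (17.4 to 44.8) left out 0. At most both-sided bins with a match (51 of 61), the match thus pointed to one side alone. This was also so in same-sided bins (647 of 745) and in bins used once (4141 of 4728).

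Matches on both strands were not enriched beyond counting error. They were present in 10 of 117 both-sided bins (8.55%, interval 4.71% to 15.02%) and 98 of 1283 same-sided bins (7.64%, 6.31% to 9.22%), a difference of 0.909 percentage points (interval -3.24 to 7.52). This interval leaves room for a higher share of up to 7.52 points as well as for none. Taken by chromosome, the share was higher than in same-sided bins on 7 and lower on 12. In bins used once the share was 5.84%, and in all bins 1.68%. Of the both-sided bins 56 (47.9%) had no match at this threshold, which says only that these letters were not found. In the 10 bins with both strands, the reverse match lay left of the forward match in 7 (interval 39.7% to 89.2%), the order in which both point out of the bin, against 55 of 98 same-sided bins (56.1%, interval 46.3% to 65.5%).

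**Figure D4:**
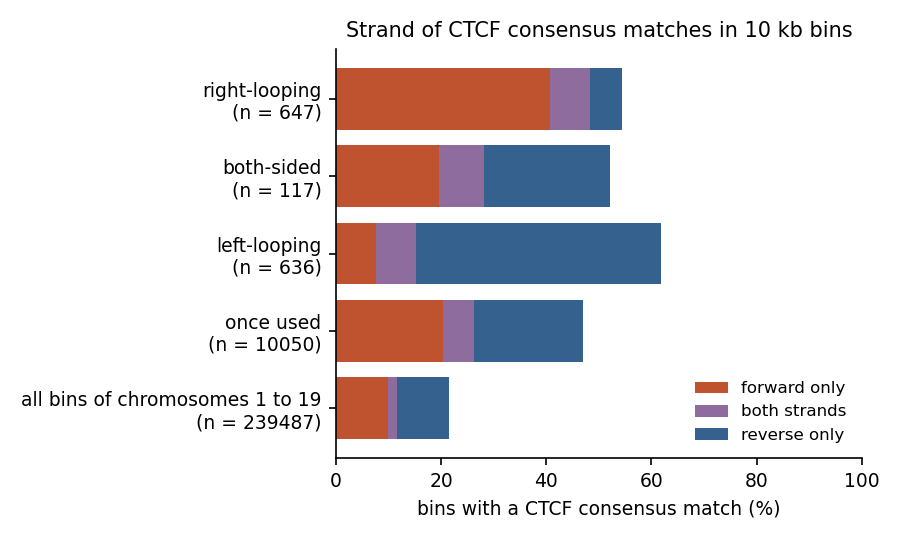
Percent of 10 kb bins (x axis) with a CTCF consensus match on the forward strand only (red), on both strands (purple) and on the reverse strand only (blue), for each group of bins with its n. Forward only makes up 40.6% of right-looping bins and reverse only 46.5% of left-looping bins, and both-sided bins hold 19.7% forward only, 8.55% on both strands and 23.9% reverse only.

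Left partners with matches on one strand were forward in 42 of 51 cases (82.4%, interval 69.7% to 90.4%) and right partners in 5 of 56 (8.93%, 3.87% to 19.3%), so that partners mostly pointed inward, toward the both-sided bin. A middle bin with matches on one strand faced the partner of one of its loops and not the other. In a joined example, chosen after the results were seen by a low FDR and exactly 1 match in each bin, left partner and middle bin were both forward and the right partner reverse. The middle bin lies in an intron of Pld5 at chr1:176220001-176230000, with loops of 290 kb to the left (FDR 0.0237) and 470 kb to the right (FDR 0.000924), and the matches of both partners lie between protein-coding genes.
Left partner, forward, chr1:175936612-175936641: aactctcaCCACTAGATGTCAGaccaaact
Middle, forward, chr1:176223377-176223406: atgagtgcCCACCAGGTGGCGTgcgtgcac
Right partner, reverse, chr1:176699973-176700002: cagccccaGCAGCAGGTGGCAGtcttgccc

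In this example the right loop, on the side to which the forward motif of the middle bin points, had the lower FDR. Over all 51 both-sided bins with matches on one strand, a comparison added after the results were seen, the loop on the side to which the match points had the lower FDR in 39 (76.5%, interval 63.2% to 86.0%). This held for 18 of 23 forward bins and 21 of 28 reverse bins. In forward bins the median FDR was 0.00486 on that side and 0.0509 on the other, and in reverse bins 0.00790 and 0.0418. That loop was the longer one in 30 of 51 bins (58.8%, interval 45.2% to 71.2%). In the 56 bins without a match, the right loop had the lower FDR in 34.

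Genes at both-sided bins were of the usual number for an anchor. A protein-coding start site lay in 14 of 117 both-sided bins (11.97%, interval 7.26% to 19.1%), 123 of 1283 same-sided bins (9.59%, 8.09% to 11.3%), 12.3% of bins used once and 7.76% of all bins. The difference from same-sided bins was 2.38 percentage points (interval -2.63 to 9.65), which includes 0 and leaves room for a share up to 9.65 points higher. The share was higher than in same-sided bins on 10 of 19 chromosomes. Starts of any annotated gene were in 24.8% against 19.8% (difference 4.99 points, -2.31 to 13.8). A protein-coding gene body overlapped 57.3% of both-sided and 55.7% of same-sided bins (difference 1.54 points, -7.91 to 10.6), and the median distance to the nearest protein-coding start was 34.4 and 30.7 kb. Of the 117 bins, 52 overlapped an exon, 15 an intron only, and 50 lay between protein-coding genes. Median GC content was 43.8% in both-sided, 44.3% in same-sided and 41.4% in all bins. Repeat-masked bases made up a median of 19.7% (interval 18.2% to 22.2%), 23.2% (22.4% to 23.9%) and 28.6%.

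The 14 bins with a protein-coding start held 15 gene symbols (16 gene identifiers, since Ptp4a1 has a pair of them), and 10 of the 14 had a joining loop. Several encode signalling proteins. Kit, a receptor tyrosine kinase on which melanocytes depend, starts in chr5:75570001-75580000, with a left loop of 350 kb (FDR 0.0683), a right loop of 270 kb (FDR 0.0119) and a joining loop of 640 kb (FDR 0.00156). Vegfa, the main growth factor of blood vessels, starts in chr17:46030001-46040000, with a left loop of 300 kb (FDR 0.000274), a right loop of 100 kb (FDR 0.0486) and a joining loop of 390 kb (FDR 0.000313). The right loop of Vegfa and the left loop of Kit were thus much weaker calls than the loop on the other side. Vegfa is transcribed to the left and its match was on the reverse strand, and Kit is transcribed to the right and its match was forward, so that in both the stronger call was on the side of transcription and of the match. Over all start-site bins with matches on one strand, the loop on the side of the match had the lower FDR in 6 of 8. The loop running downstream had the lower FDR in 6 of 13 bins with starts on one strand (46.2%, interval 23.2% to 70.9%), so that no such pattern with transcription was seen over these bins.

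Cxcl12, a chemokine that guides migrating cells, starts in chr6:117160001-117170000. Its left loop was 200 kb (FDR 0.0330) and its right loop 660 kb (FDR 0.00118), the longest of the start-site bins, with a forward match and no joining loop. Gab1, a docking protein of receptor tyrosine kinases, had loops of 120 kb (FDR 0.00182) and 100 kb (FDR 0.00118) at chr8:80880001-80890000, both confident, and a joining loop of 240 kb (FDR 3.59e-05). The left loop of Gab1 ended in the same gene. Timp3, an inhibitor of metalloproteinases, had loops of 240 kb (FDR 0.000884) and 150 kb (FDR 0.00486) at chr10:86300001-86310000, with a joining loop of 390 kb (FDR 0.00199).

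Fzd7, a Wnt receptor, was the only gene of the fixed cochlear lists with its start in a both-sided bin. The bin, chr1:59480001-59490000, had a left loop of 170 kb (FDR 0.00471) that ended in Cdk15 and a right loop of 100 kb (FDR 0.0161). No joining loop was listed within 10 kb, and 2 other loops spanned the bin. The lists, which cover signalling pathways, transcription factors, hair cell and deafness genes, axon guidance and the loop machinery, held 224 genes on these chromosomes. Of these 1 started in a both-sided bin, 8 in a same-sided bin (Emx2, Irx5, Meis1, Wnt5a, Lgr4, Ntf3, Ntrk2 and Robo2) and 58 in any anchor bin (25.9%). Of all 20807 protein-coding genes, counted by identifier, 16 started in a both-sided, 131 in a same-sided and 1529 in any anchor bin (7.35%). The lists were chosen with earlier results of these data known, so these shares are a description and cannot be used to show enrichment.

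The remaining start-site bins had loops of 70 to 530 kb. Of them, Kcnq5, a voltage-gated potassium channel, spread widest, with loops of 530 kb and 300 kb (FDR 0.00321 and 0.0266), the left one ending within the gene. Syt17, of the synaptotagmin family, had the shortest, with 140 kb and 70 kb (FDR 0.0239 and 0.00807). Nfil3, a basic leucine zipper repressor, had loops of 330 and 100 kb (FDR 0.0122 and 0.0726) with a joining loop of FDR 1.22e-05, and Ank, which acts in pyrophosphate export, had equal loops of 130 kb (FDR 0.00550 and 0.0770) with a joining loop of FDR 7.14e-05. The phosphatase gene Ptp4a1, the transporter gene Slc22a23, the adaptor gene Nck2, and the divergent pair Ccdc148 and Pkp4 made up the rest, the last 2 bins without a joining loop. Where the bin had starts on one strand and unequal loops, the longer loop ran downstream in 7 of 12 bins (58.3%, interval 31.95% to 80.7%). The width of this interval shows that a preference for either direction was not detectable with 12 bins.

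**Figure D5:**
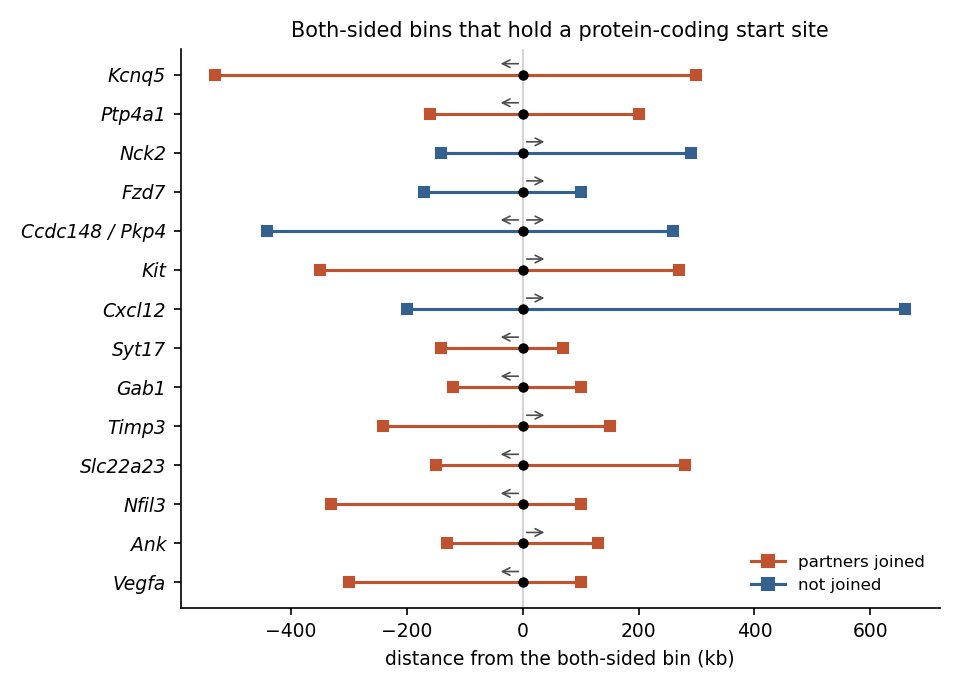
Loops of the 14 both-sided bins that hold a protein-coding start site. The black point at 0 is the bin, squares are the left and right partners (x axis, distance in kb), small arrows give the direction of transcription, and red marks the 10 bins whose partners were joined by a listed loop, blue the 4 others. Cxcl12 has the longest loop, 660 kb, and Syt17 the shortest, 70 kb.

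At 92 of 117 bins (78.6%) no protein-coding start lay in the bin or in either partner, and at 13 a partner held one. These counts over 3 bins are not given here for the other groups, so they are a description. A single bin held such a start in 12.3% of bins used once and 7.76% of all bins. The start of a noncoding gene without a protein-coding one lay in 15 bins (12.8%), a share not given here for the other groups. Starts of any annotated gene lay in 24.8% of both-sided, 19.8% of same-sided and 17.4% of all bins. At 4 of 117 bins (3.42%), a share likewise not given for the other groups, all 3 ends lay in one gene body. These were Sorcs2, a sorting receptor gene (loops of 190 and 170 kb), Palld, an actin-associated protein (140 and 180 kb, with a joining loop of FDR 1.21e-06), Syn3, a synapsin gene in which Timp3 is nested (240 and 150 kb), and Prkg1, a cGMP-dependent kinase gene (480 and 340 kb). A start just outside the bin was seen at Eya1, a transcriptional coactivator needed for ear formation, which was picked after its values were seen. Its start lay 0.235 kb from the bin chr1:14300001-14310000, whose loops were 510 kb (FDR 0.0260) and 200 kb (FDR 0.00501) with no joining loop.

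The most confident both-sided bins, by the FDR of the weaker loop, all had a joining loop. The first, chr13:71950001-71960000, overlapped Irx1, and its right loop ended at the start of Irx2. Both genes encode Iroquois homeodomain transcription factors. The left loop was 490 kb (FDR 0.000125), the right loop 670 kb (FDR 0.000201) and the joining loop 1170 kb (FDR 0.0314), so that here the joining loop was the weakest of the 3. No CTCF consensus match was found in this bin. The next were an intronic bin of Ankrd50 at chr3:38470001-38480000 (230 and 370 kb, joining loop FDR 0.000232) and a bin in Dgkg, a diacylglycerol kinase gene, at chr16:22570001-22580000 (270 and 230 kb, 0.000106). Then came a bin between protein-coding genes at chr1:82300001-82310000 (990 and 130 kb, 0.000837), with partners in introns of Nyap2 and Rhbdd1. The last was a bin in the keratin gene Krt72 at chr15:101770001-101780000 (250 and 190 kb, 0.00327). In 4 of these 5 bins no match to the consensus was found.

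The bins with the widest span, named here, had no joining loop. Whether the caller could list loops as long as these spans was not tested, so this absence is a description only. The widest, 2370 kb, lay at chr7:70340001-70350000, 16.7 kb from the start of Nr2f2, which encodes an orphan nuclear receptor. Its left loop was 850 kb (FDR 0.000148) and its right loop 1520 kb (FDR 0.0164). The others were bins at chr6:13270001-13280000 (950 and 1230 kb), chr13:38980001-38990000 (310 and 1770 kb, the longest single loop), chr3:137410001-137420000 in the endothelial gene Emcn (1530 and 340 kb) and chr1:75920001-75930000 (260 and 1590 kb), whose right loop ended at the start of Epha4, an axon guidance receptor gene. The bin of next widest span, 1780 kb at chr1:62710001-62720000 in Nrp2, did have a joining loop (FDR 0.0242). At 1790 kb it was the longest joining loop of the both-sided bins. The 7 bins with the narrowest spans, 210 to 240 kb, all had a joining loop. They were the bins of Syt17 and Gab1, one at chr7:92960001-92970000 between protein-coding genes (80 and 130 kb), one in the RNA-editing gene Adarb1 at chr10:77350001-77360000 (70 and 150 kb), and one in Cfap69 at chr5:5640001-5650000 (140 and 100 kb), whose right loop ended at the start of Steap1. The last shared its span of 240 kb with the bins chr9:102780001-102790000 (150 and 90 kb) and chr17:87430001-87440000 (110 and 130 kb).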

How the data were processed

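Micro-C of 4 cochlear replicates was used. By the study's methods, the authors used BWA-MEM for alignment to mm10 and pairtools to drop duplicates, retained only chimeric read pairs, merged the replicates and ran Mustache at 10 kb. The authors deposited for each loop a pair of bins, an FDR (a q-value, below 0.1 in the list) and the detection scale, a score used only as a filter. Replicates 1 to 3 were biological and replicate 4 technical by the study. Versions are not given in the sources used here. The other 12 samples (ATAC-seq and CUT&RUN) were not analysed here.

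Loop length was taken from bin start to bin start. Start sites are the 5′ ends of GENCODE vM21 genes, and sequence is GRCm38.p6. Expected numbers were taken per chromosome or 1 Mb window, over the bins between the first and last anchor. They are the number of bins times a binomial probability under independent placement. This was the probability of exactly 1 left and 1 right end, or of exactly 2 of one kind and none of the other. The 14-base CTCF consensus, from general knowledge, was matched on both strands with at most 1 mismatch. Shares have Wilson intervals, differences Newcombe intervals, and medians exact binomial intervals, all at 95%. The steps were tested on simulated data. Python 3.11.15, numpy 2.4.6, pandas 2.3.3, scipy 1.17.1 and matplotlib 3.10.9 were used. Alternatives were stricter FDR limits, the smallest detection scale, merged calls, other tolerances, chromosome X, other start definitions and other mismatch limits. Bins, gene lists and tests were chosen with earlier results of these data known. Loci named are the 5 both-sided bins with the lowest FDR of the weaker loop, the 5 with the longest and the 5 with the shortest span (with both others tied for the last place), those with the start of a list gene, and the 5 joined bins of lowest FDR, and further start-site bins and Eya1 were named after their values were seen. Some genes and loci are not reported here.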

Additional observations from a re-analysis of the deposited data

How the results depend on the processing

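No paired analysis was possible because the loops were listed once for the merged replicates, and for the same reason no replicate could be left out. The number of both-sided bins (117) was 59 with loops of FDR below 0.05, 14 below 0.01, 74 at the smallest detection scale, and 391 bins or bin pairs when the loops could meet in neighbouring bins. Their share was 6.06%, 3.56% and 13.8% in the first, second and last of these. The ratio to the expected number (0.648) was 0.517, 0.320 and 0.782 in the first 3, and 0.441 with densities within 1 Mb. It was below 1 in every alternative that gave it. Partners joined (59.8%) were 17.1% with exact bins and 72.6% within 50 kb. The gene body difference turned to -1.12 percentage points (interval -14.1 to 11.4) below an FDR of 0.05, around 0 in both. With no mismatch, the forward share was 92.9% in right-looping and 3.94% in left-looping bins. Lengths, spanning loops, start sites and matches on both strands kept their direction and their side of 0 in all alternatives run, apart from a difference of 0 for the reversed consensus used as a control. Merging calls within 100 kb, added for the joining loops after the data were seen, gave 59.8%. The cause of these changes was not tested, apart from the smaller number of loops under stricter limits. The list gives no depth per loop, so a missing loop cannot be told apart from one below the caller's limit.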
